A study of Mus musculus with 20 samples.

Results

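The 42 genes described here encode the lysosome and its proton pump, the vacuolar ATPase (V-ATPase). They were chosen by symbol for their known function. No measured value stood in the rule, but earlier results of these data were known when the genes were chosen. They comprise 8 subunits of the V0 sector, 8 of the V1 sector, 2 accessory proteins of the pump, 3 lysosomal membrane proteins, 8 cathepsins, 6 glycosidases, 4 proteins of lipid handling and the 3 transcription factors Tfeb, Tfe3 and Mitf. Each matched 1 of the 55471 gene IDs in the count tables, and 41 of them were among the 15233 genes with enough reads to test. Atp6v0d2, a V0 subunit best known from osteoclasts and macrophages, was not tested, since its group means were 0.122 CPM (gene counts scaled to the library's total) in KO_cold, 0.0591 in WT_cold, 0.12 in KO_RT and 0.216 in WT_RT.

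Stranded mRNA sequencing of whole mouse brown fat (brown adipose tissue, BAT), which burns lipid and glucose for heat, gave the counts. KO_cold and KO_RT come from mice that lack CEBPB, which encodes the transcription factor C/EBP beta, in adipose cells only (KO), after 4 h of cold stress or at room temperature (RT). WT_cold and WT_RT come from wild-type mice under the same treatments. Each group held 5 libraries, 20 in all, with 27.07 to 55.18 M reads assigned to genes per library. The promoter that drives the deletion, the strain and the age are not given in the sources used here. Cells of the depot that are not adipose keep Cebpb. Since no label says that every library is another animal, the p-values below rest on the variation among libraries, part of which may be technical.

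Cebpb itself was at 1.61 to 2.27 CPM in KO_cold, against 108 to 167 in WT_cold, and at 0.208 to 0.856 in KO_RT, against 75.5 to 130.4 in WT_RT. The 10 brown adipocyte markers were all present, with summed levels of 18168 to 21136 CPM in KO_cold, 18491 to 21965 in WT_cold, 8851 to 11543 in KO_RT and 9216 to 13352 in WT_RT. The 18 skeletal muscle markers summed to 50 to 60.1 CPM in KO_cold, with Ckm and Myh4 at 0, and to 51.9 to 90.8 in WT_cold, 83.3 to 712 in KO_RT and 57.3 to 1598 in WT_RT. The 15 macrophage markers summed to 162 to 198 CPM in KO_cold, 143 to 201 in WT_cold, 136 to 196 in KO_RT and 125 to 155 in WT_RT. On the first principal component of log2 CPM, with 53.9% of the variance and cold as the positive end, WT_cold replicate 5 (26.6) and WT_RT replicate 4 (-23.4) lay nearer the middle than the rest, which were at 37.6 to 51.8 in the cold and at -56.3 to -39.5 at RT.

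The lysosome is the acidic compartment in which cells take apart proteins, glycans and lipids delivered by endocytosis and autophagy. Its acid comes from the V-ATPase, a rotary pump whose V1 sector in the cytosol hydrolyses ATP and whose V0 sector in the membrane carries protons. The same membrane is where mTORC1, the amino acid sensing kinase, is docked and where it phosphorylates TFEB and its relatives. When that phosphorylation falls, these factors enter the nucleus and switch on genes that carry the CLEAR element, a palindromic site near their starts. In brown fat, lysosomal acid lipase (Lipa) breaks down lipid that autophagy brings from droplets, beside the cytosolic lipases.

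The central letters of that element, TCACGTGA, were searched on both strands in RefSeq promoter windows of build GRCm38.p6, each with 250 bases before and 50 after a RefSeq start, which can be an internal start of the gene. Of the 42 genes, 33 had a window, with 42 windows in all. The 8 letters stood in 7 of the 42 windows, of 7 genes, at 2 places in Gla and in Ctsa, and in 0.974% of all 32851 windows. Of these genes Atp6v1a, Atp6v0d1, Gla and Ctsd were higher after cold in WT, while Ctsa, Mcoln1 and Atp6v0e did not pass the test there. Of the 41 tested members 46.3% were higher and 17.1% lower in that comparison, and of all tested genes 26.2% and 30.2%. Sites are printed 5′ to 3′ on the gene's strand, with the motif in capitals, to show the letters that genes with different responses to cold share. They were chosen after the values were seen. The start of the Atp6v0e window lay 13.2 kb inside the annotated gene, and those of the other 6 genes lay within 0.9 kb of the annotated 5′ end.
Atp6v1a (chr16:44139373-44139402, minus strand): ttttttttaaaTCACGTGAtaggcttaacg
Atp6v0d1 (chr8:105566050-105566079, minus strand): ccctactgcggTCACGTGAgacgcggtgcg
Gla (chrX:134601215-134601244, minus strand): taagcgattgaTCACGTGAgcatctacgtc
Gla (chrX:134601182-134601211, minus strand): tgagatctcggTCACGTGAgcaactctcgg
Ctsd (chr7:142387908-142387937, minus strand): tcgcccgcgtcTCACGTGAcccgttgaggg
Ctsa (chr2:164833749-164833778, plus strand): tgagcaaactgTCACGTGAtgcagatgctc
Ctsa (chr2:164833766-164833795, plus strand): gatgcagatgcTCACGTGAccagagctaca
Mcoln1 (chr8:3500462-3500491, plus strand): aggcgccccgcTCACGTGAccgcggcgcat
Atp6v0e (chr17:26676387-26676416, plus strand): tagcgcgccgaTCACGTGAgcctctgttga

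The shorter core CACGTG, which lies inside TCACGTGA and is shared by many E-box factors, stood in 13 of the 42 windows and in 7.15% of all windows. Of those 13 genes 7 were higher after cold in WT, 2 were lower and 4 did not pass the test. These counts stand beside 46.3% higher and 17.1% lower of the 41 tested members, and 26.2% and 30.2% of all tested genes. A link between the letters and the change with cold was not tested. Naglu and Glb1 were the pair of those 13 genes that were lower. Lamp1 held it 4 times.
Naglu (chr11:101070009-101070038, plus strand): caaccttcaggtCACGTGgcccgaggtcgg
Glb1 (chr9:114401018-114401047, plus strand): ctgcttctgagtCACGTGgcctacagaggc
Lamp1 (chr8:13159050-13159160, plus strand): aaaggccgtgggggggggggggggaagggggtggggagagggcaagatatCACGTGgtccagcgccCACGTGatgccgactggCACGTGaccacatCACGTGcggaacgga

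A match of this kind describes the letters of the window and not a bound site. TTGCNNAA, letters of a C/EBP site, stood in 8 of the 42 windows, of 7 genes, and in 10.8% of all windows. The genes were Ctsk, Mitf, Gaa, Npc2, Ctsl, Tfeb and Atp6ap1. TGACGTCA, the full cAMP response element, stood in the window of Mitf alone among the 42 genes and in 1.79% of all windows. That window is 1 of 3 of Mitf, and its start is an internal one, 185 kb inside the annotated gene. The gene counts do not show whether this start is used in brown fat. The stretch is shown because Mitf was the only member called for a difference between the genotypes in its change with cold. That call did not hold under 19 of 29 alternative fits, described below.
Mitf (chr6:97991580-97991687, plus strand): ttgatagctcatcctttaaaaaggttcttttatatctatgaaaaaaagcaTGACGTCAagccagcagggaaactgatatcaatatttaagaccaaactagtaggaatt

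Levels were compared between genes per kb of exon. The highest was Psap, the precursor of the saposins that help enzymes reach their lipids, at 450.2 CPM per kb in WT_cold and 511 in WT_RT. Next in WT_RT came Lamp1, the main glycoprotein of the lysosomal membrane, at 217 CPM per kb, and the proteases Ctsb, Ctsz and Ctsd at 158, 154 and 102. The pump subunits lay together: in WT_RT, 14 of the 16 V0 and V1 subunits ranged from 6.39 (Atp6v0c) to 29.5 (Atp6v1f) CPM per kb. Below them were Atp6v0e2 at 0.731 and Atp6v0d2 at 0.0795 CPM per kb. The transcription factors were low, with Tfe3 at 2.88, Tfeb at 1.4 and Mitf at 1.22 CPM per kb in WT_RT. Of 20 libraries, the highest exceeded the lowest by 1.24 times for Atp6v1f and by 6.71 times for Atp6v0e2, the smallest and largest such ratios among the 41 tested genes.

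**Figure D1:**
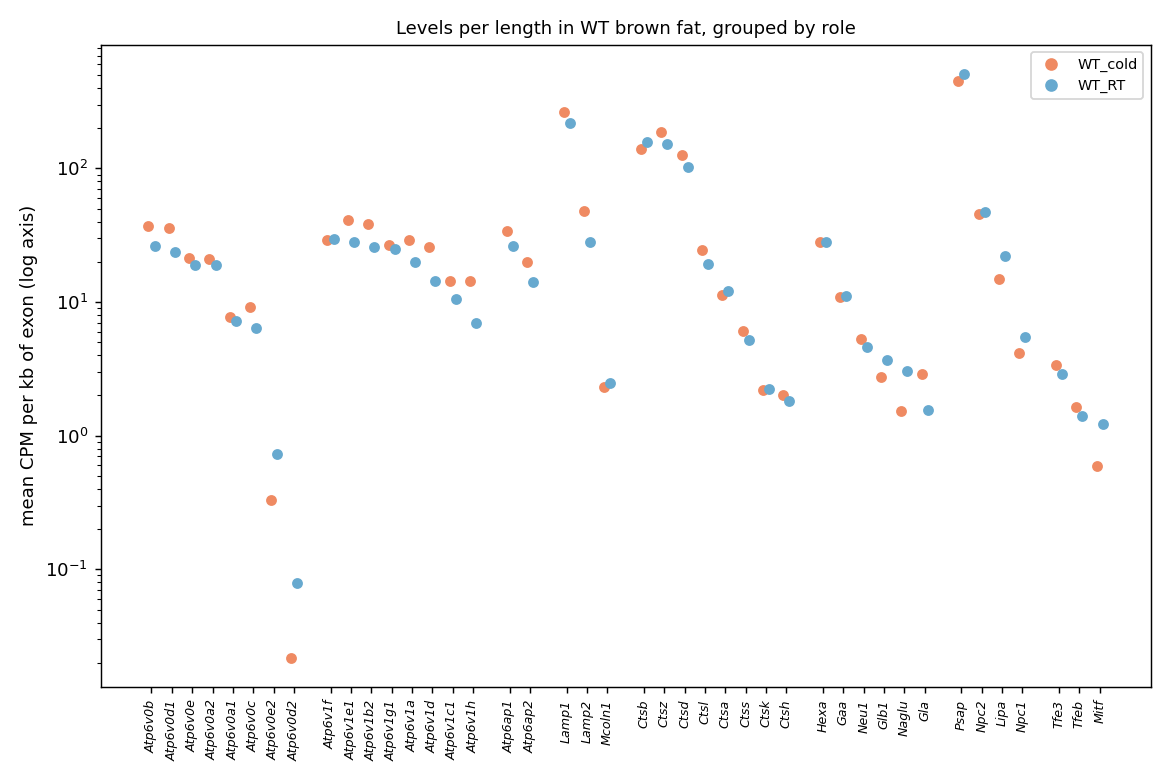
Mean CPM per kb of exon (log axis) of the 42 genes in WT_cold (orange) and WT_RT (blue), 5 libraries each, grouped by role and ordered by level in WT_RT. Psap, Lamp1, Ctsb, Ctsz and Ctsd stand above 100 CPM per kb in WT_RT, and Atp6v0d2 lies lowest.

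After 4 h of cold most of the 17 tested pump genes among the members were higher and most of those of lipid handling were lower, in KO and in WT. V-ATPase subunits and assembly factors outside the members, counted below, went mostly the other way. Of 12 tested, 2 were higher and 6 lower in KO, and 3 were higher and 6 lower in WT. In KO, 18 of the 41 tested genes were higher after cold (27.5% of all tested genes were called higher) and 8 were lower (31.7% of all were called lower), with a median log2 change of 0.08 against -0.05 over all genes. In WT, 19 were higher (26.2% of all called higher) and 7 were lower (30.2% of all called lower), with a median of 0.18 against -0.05. In a fit with a term for muscle markers 4 of the 41 were called lower in KO. Leaving out any 1 of the 10 libraries gave 4 to 6 lower in KO, with 4 without KO_RT replicate 4 and 5 without KO_cold replicate 1 or KO_RT replicate 2 or 3, and a median of 0.10 to 0.16, highest without KO_RT replicate 2. A gene was called at a Benjamini-Hochberg adjusted p under 0.05 in edgeR's quasi-likelihood test over all tested genes. The 5 cold and 5 RT libraries did not overlap for 20 of the 41 genes in KO, 16 higher and 4 lower, against 44.9% of all genes, and for 20 in WT, 14 higher and 6 lower, against 38.2% of all genes.

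The direction was shared between genotypes where both passed. Between the comparisons, which share no library, 17 genes were higher in both, 6 were lower in both and 0 went opposite ways. The share of all genes called in both was not counted, so these counts do not set the members apart from other genes. Over all tested genes, the difference between the genotypes was called higher for 0.427% and lower for 0.315%. Ctsd, Tfe3 and Mitf passed in WT alone, and Ctsb, Ctsz and Npc2 in KO alone. Of these 6 genes only Mitf also passed the test of the difference between the genotypes. The 17 tested pump genes had 11 higher and 1 lower in each genotype, with medians of 0.52 in KO and 0.49 in WT. The other 24 genes had 7 higher and 7 lower in KO and 8 higher and 6 lower in WT, with medians of 0.03 in KO and -0.02 in WT. Since BAT was sequenced whole, fewer cells of a type and less RNA per cell cannot be told apart.

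**Figure D2:**
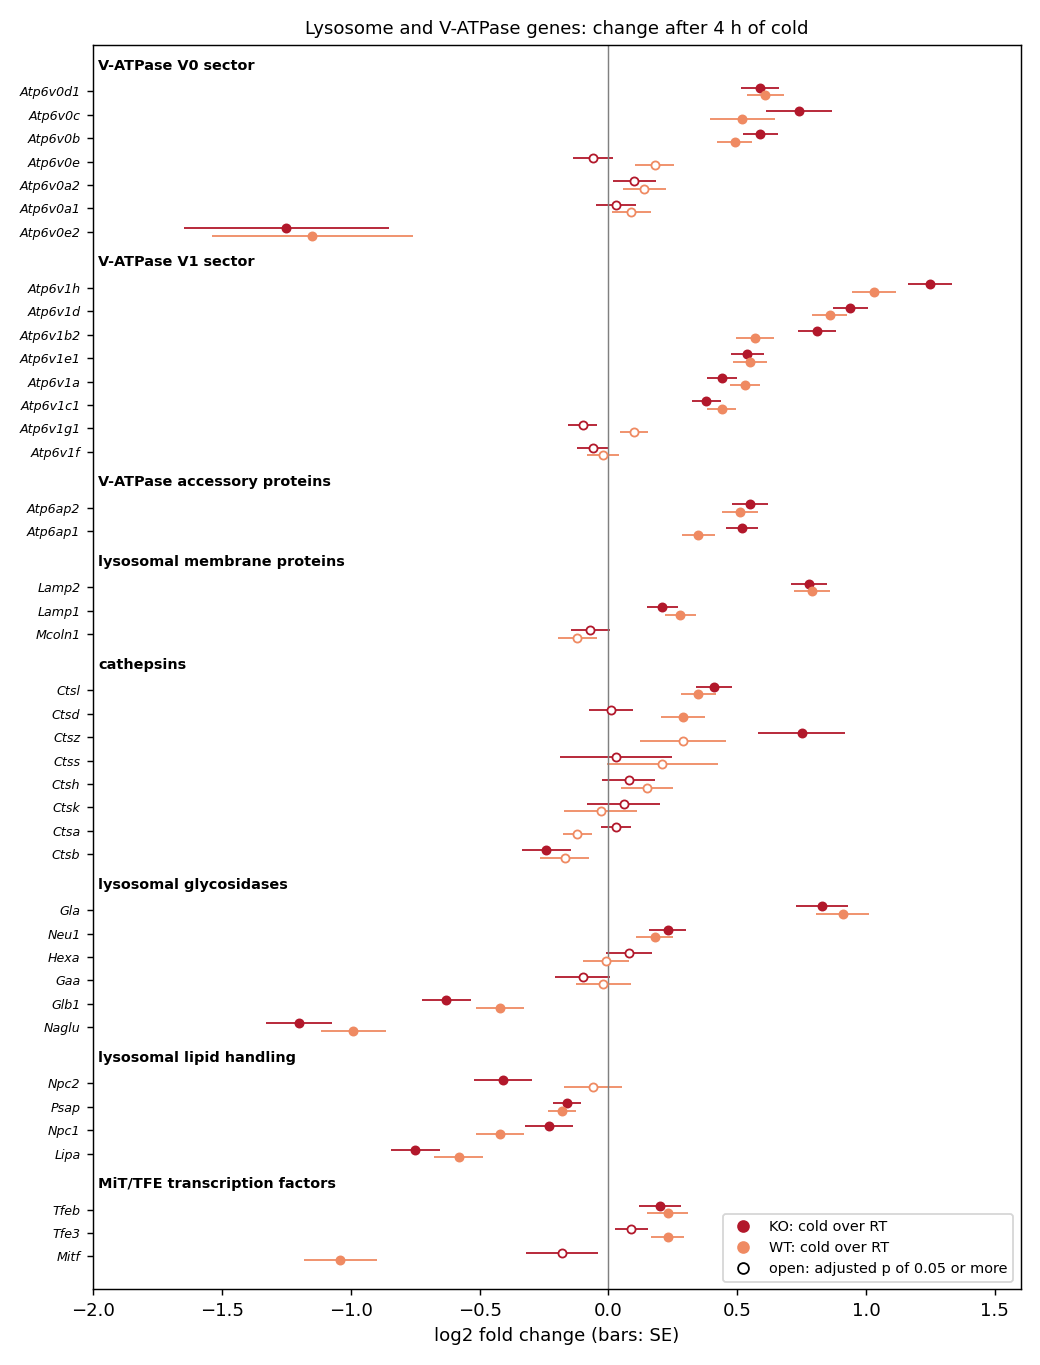
Log2 change, cold over RT (bars: SE), of the 41 tested genes by role, in KO (dark) and WT (pale), with open points where the adjusted p was 0.05 or more. Most V-ATPase genes lie right of 0 in both genotypes, the lipid handling genes lie left, and Mitf is the gene with the widest gap between KO and WT.

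The V1 sector had 6 of 8 subunits higher after cold in each genotype, with medians of 0.49 in KO and 0.54 in WT. Atp6v1h (ENSMUSG00000033793.12, chr1:5070018-5162529), the H subunit that ties ATP hydrolysis to the assembled pump, rose most. Its CPM were 149, 135, 138, 173 and 145 in KO_cold and 64.8, 59.1, 64.5, 61.0 and 61.5 in KO_RT, and 145, 169.7, 128, 141 and 116 in WT_cold and 69.2, 69.4, 62.7, 64.3 and 76.0 in WT_RT. Each cold library stood above each RT library in both genotypes. The log2 change was 1.25 ± 0.0856, adjusted p = 1.83e-10 in KO and 1.03 ± 0.085, adjusted p = 2.25e-09 in WT (edgeR quasi-likelihood test, n = 5 per group).

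Atp6v1d (ENSMUSG00000021114.9, chr12:78840725-78861638), the D subunit of the central rotor, was second. It was at 127, 118, 112, 133 and 133 CPM in KO_cold, against 73.3, 63.9, 63.7, 63.1 and 59.8 in KO_RT, and at 112, 128, 121, 126 and 109 in WT_cold, against 64.6, 68.9, 59.5, 64.9 and 71.0 in WT_RT. The cold and RT libraries were again apart in both genotypes, with log2 changes of 0.94 ± 0.0679 in KO and 0.86 ± 0.0677 in WT (edgeR adjusted p = 3.58e-10 in KO and 1.38e-09 in WT). The catalytic A subunit Atp6v1a, the nucleotide-binding B subunit Atp6v1b2, and Atp6v1c1 and Atp6v1e1 of the stalks rose by 0.38 to 0.81 in KO and by 0.44 to 0.57 in WT on the log2 scale. For all 4 of them the cold and RT libraries did not overlap in either genotype. Atp6v1f and Atp6v1g1, the smallest V1 subunits here by exon length, did not pass: the log2 difference was -0.06 in KO and -0.02 in WT for Atp6v1f, and -0.10 in KO and 0.10 in WT for Atp6v1g1.

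In the V0 sector 3 of 7 tested subunits were higher and 1 was lower in each genotype, with medians of 0.10 in KO and 0.18 in WT. The risers were Atp6v0b and Atp6v0c, which belong to the proton-carrying ring, and Atp6v0d1, which joins the ring to the rotor. Atp6v0d1 averaged 62.3 ± 6.36 CPM in KO_cold, against 41.3 ± 2.59 in KO_RT, and 64.8 ± 3.2 in WT_cold, against 42.5 ± 4.17 in WT_RT (mean ± SD, n = 5). Atp6v0b rose by 0.59 in KO and 0.49 in WT, and Atp6v0c by 0.74 in KO and 0.52 in WT. Pseudogenes with sequence close to Atp6v0c are annotated, and reads that map to several places were not counted. The a1 and a2 isoforms, Atp6v0a1 and Atp6v0a2, which place the pump in different membranes, had log2 differences of 0.03 to 0.14 and did not pass in either genotype. Atp6v0e was at -0.06 ± 0.0765, adjusted p = 0.491 in KO and 0.18 ± 0.0761, adjusted p = 0.0542 in WT (edgeR), and passed in WT under 10 alternatives, 0.28 being the largest value, without WT_RT replicate 5. Without that library Atp6v0a2 was at 0.24 in WT (edgeR adjusted p = 0.0126).

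Atp6v0e2, the second isoform of the e subunit, was the only one of the 17 tested pump genes called lower after cold. It was at 0.955, 0.588, 0.669, 1.05 and 1.01 CPM in KO_cold, against 2.47, 0.909, 1.3, 3.95 and 1.63 in KO_RT, and at 0.613, 0.853, 0.852, 0.704 and 0.906 in WT_cold, against 3.44, 1.07, 0.885, 2.32 and 0.985 in WT_RT. Libraries overlapped in both genotypes, and the high ones at RT were KO_RT replicates 1 and 4 and WT_RT replicates 1 and 4. Skeletal muscle markers summed to 331 and 685 CPM in those KO_RT libraries and to 1598 and 57.3 CPM in those WT_RT libraries. KO_RT replicate 3 had 712 CPM of muscle markers and 1.3 of Atp6v0e2, and WT_RT replicate 2 had 685.5 and 1.07 CPM. The log2 change was -1.25 ± 0.397 in KO and -1.15 ± 0.39 in WT (edgeR adjusted p = 0.0107 in KO and 0.0169 in WT). In a fit with a term for muscle markers it no longer passed, at -0.85 in KO (edgeR adjusted p = 0.216) and -0.89 in WT (edgeR adjusted p = 0.113). The mean log2 level of those markers was -2.24 in KO_cold and 2.94 in KO_RT, and -1.14 in WT_cold and 2.17 in WT_RT. The term thus overlaps with cold, and a part of muscle in the change of Atp6v0e2 was not tested. Without KO_RT replicate 4 the change in KO was -0.85 (edgeR adjusted p = 0.0557), and without WT_RT replicate 1 that in WT was -0.74 (edgeR adjusted p = 0.0877).

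Both accessory proteins rose. Atp6ap1, which helps assemble V0, rose by 0.52 ± 0.0629 in KO and 0.35 ± 0.0626 in WT, and Atp6ap2, the prorenin receptor, by 0.55 ± 0.0696 in KO and 0.51 ± 0.0692 in WT (edgeR adjusted p at most 5.12e-05 for these 4 values). Summed over the 18 pump genes, the level was 1553 to 1630 CPM in KO_cold and 1053 to 1136 in KO_RT, and 1491 to 1640 in WT_cold and 1044 to 1229 in WT_RT. No cold library overlapped an RT library in that sum.

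**Figure D3:**
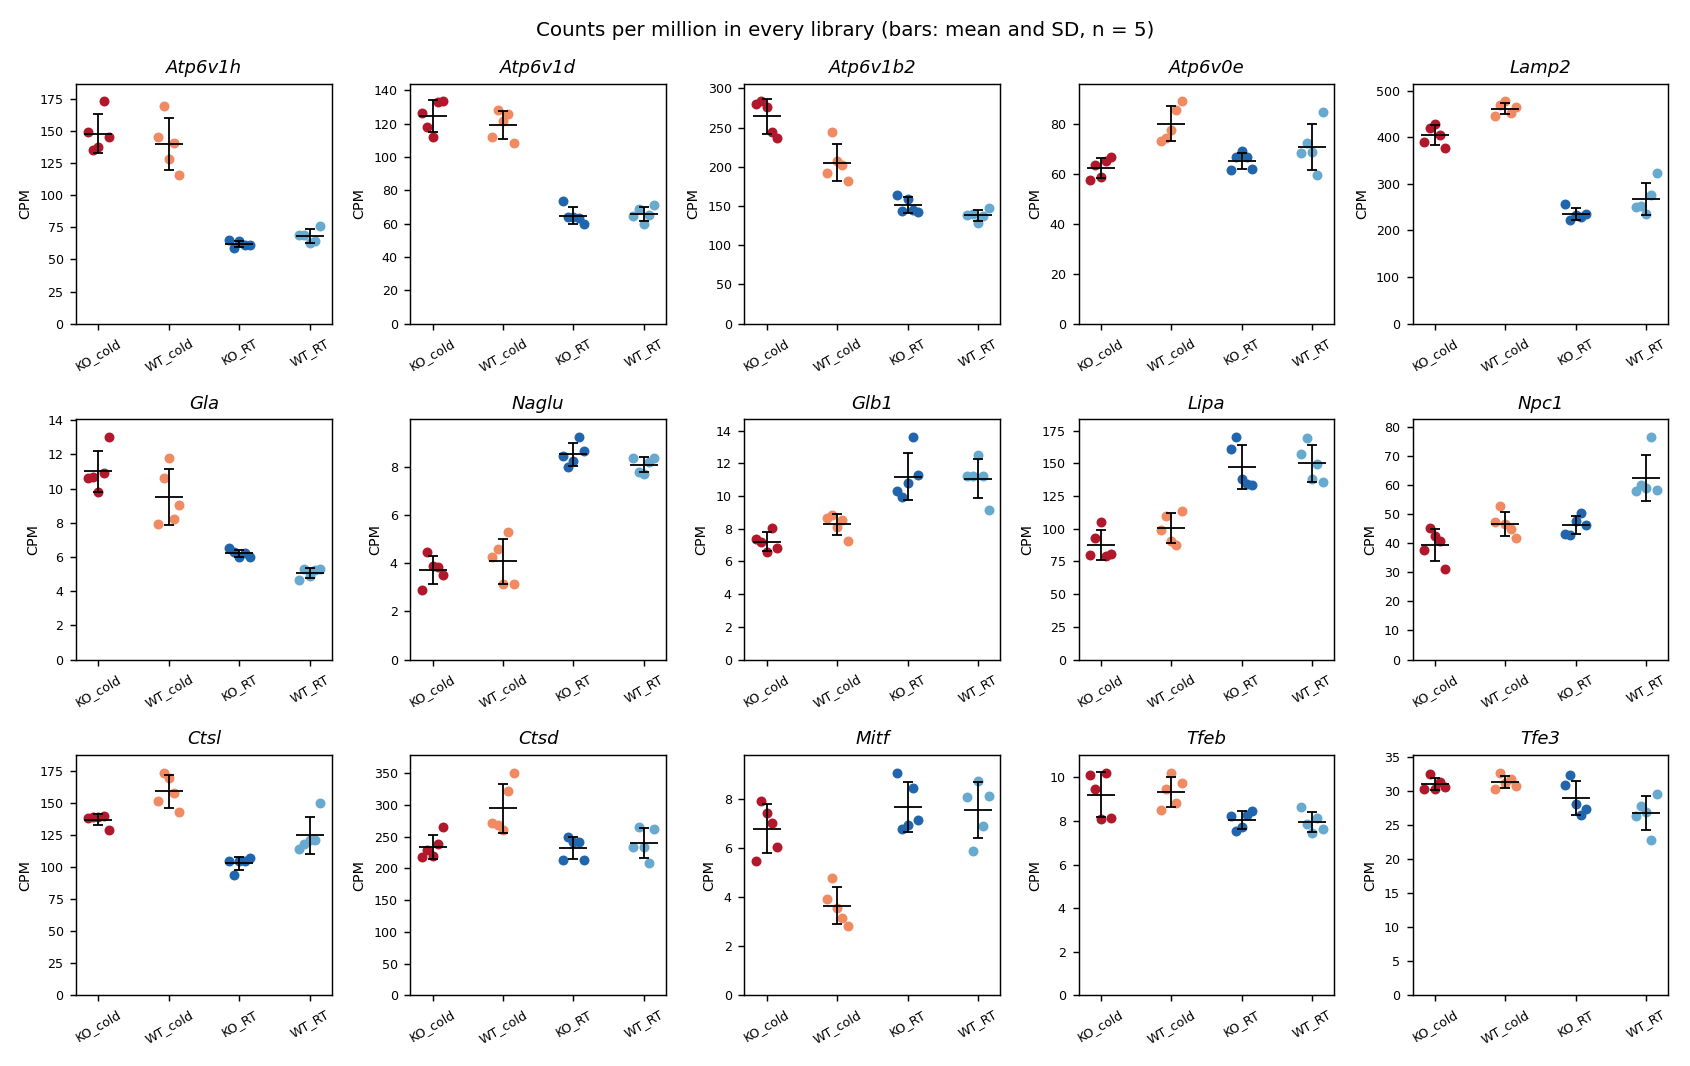
CPM in each of the 20 libraries for 15 of the genes (points: libraries; bars: mean and SD, n = 5), with KO_cold, WT_cold, KO_RT and WT_RT from left to right in each panel. Atp6v1h, Atp6v1d, Atp6v1b2, Lamp2 and Gla are higher in the cold groups, Naglu, Glb1 and Lipa are lower, and Mitf is low in WT_cold only.

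Of the membrane proteins, Lamp2 and Lamp1 rose and the calcium channel Mcoln1 did not pass. Lamp2, which carries the receptor of chaperone-mediated autophagy among its isoforms, was at 377 to 429 CPM in KO_cold, against 223 to 256 in KO_RT, and at 446 to 477 in WT_cold, against 235 to 323 in WT_RT. The log2 change was 0.78 ± 0.0693, adjusted p = 5.72e-09 in KO and 0.79 ± 0.0692, adjusted p = 5.44e-09 in WT (edgeR). Lamp1 changed less, by 0.21 in KO and 0.28 in WT, though its cold and RT libraries did not overlap in either genotype. The log2 difference of Mcoln1 was -0.07 in KO and -0.12 in WT.

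The cathepsins, the proteases of the lysosome, had no shared direction. In KO, 2 of 8 were higher (Ctsl and Ctsz) and 1 was lower (Ctsb), and in WT 2 were higher (Ctsl and Ctsd). Their medians were 0.05 in KO and 0.18 in WT. Ctsl, a cysteine endopeptidase, rose by 0.41 ± 0.0684 in KO and 0.35 ± 0.0682 in WT (edgeR adjusted p = 2.15e-05 in KO and 0.000155 in WT). Its gene shares exon sequence on the same strand with an annotated pseudogene, and reads in both were not counted. Single libraries decided other calls: without WT_RT replicate 5, which had 337 CPM of Ctsz against 169 to 205 in the other 4, Ctsz rose by 0.52 in WT (edgeR adjusted p = 0.00252), and without WT_cold replicate 5 Ctsb was at -0.27 in WT (edgeR adjusted p = 0.00484). Ctsz, an exopeptidase, was at 231 to 383 CPM in KO_cold, against 151 to 195 in KO_RT, and Ctsb, a cysteine protease, was at 770.0 to 900.1 CPM in KO_cold, against 853 to 1081 in KO_RT. Only Ctsz was apart between those groups, at a log2 change of 0.75 ± 0.169, adjusted p = 0.000831, while Ctsb overlapped at -0.24 ± 0.0951, adjusted p = 0.0321 (edgeR), a call that did not hold when any 1 of 8 of the 10 libraries was left out (-0.17 to -0.23). Ctsa, Ctsh, Ctsk and Ctss passed in neither genotype. Ctss and Ctsk, abundant in macrophages and osteoclasts, averaged 8.97 and 4.23 CPM in KO_cold, 8.23 and 3.33 in WT_cold, 8.79 and 4.05 in KO_RT, and 7.11 and 3.39 in WT_RT. Of the 15 macrophage markers 4 rose and 1 fell after cold in KO (27.5% and 31.7% of all genes), and 3 rose and 2 fell in WT (26.2% and 30.2% of all genes). Their log2 differences ranged from -1.75 to 1.09 in KO and from -1.92 to 1.19 in WT, and 2 called changes in each genotype were at least 2-fold. The 10 others in each genotype did not pass, among them Csf1r and Adgre1, at log2 differences of -0.16 and -0.41 in KO and -0.17 and -0.08 in WT. In a fit with the macrophage marker mean as a term, Ctsb also passed in WT, at -0.21 (edgeR adjusted p = 0.0237), and no other call of cold among the 41 genes changed.

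Of the 6 glycosidases 2 were higher and 2 lower in each genotype, which is close to the shares of all genes (27.5% higher and 31.7% lower in KO, 26.2% and 30.2% in WT). Gla (alpha-galactosidase A, chrX:134588149-134601125), the enzyme missing in Fabry disease, was at 10.6, 10.7, 9.81, 10.9 and 13 CPM in KO_cold, against 6.52, 6.31, 5.97, 6.22 and 6.0 in KO_RT. In WT it was at 7.9, 10.6, 11.8, 8.2 and 9.04 CPM after cold, against 4.64, 5.28, 4.91, 5.24 and 5.3 at RT. The cold libraries were all above the RT libraries of their genotype, with log2 changes of 0.83 ± 0.101, adjusted p = 4.54e-07 in KO and 0.91 ± 0.102, adjusted p = 1.48e-07 in WT (edgeR). Its window carries the printed TCACGTGA at 2 places, and Neu1, the sialidase, rose by 0.23 in KO and 0.18 in WT. The rise of Neu1 in WT did not pass without WT_cold replicate 2 (0.16, edgeR adjusted p = 0.0644) or WT_RT replicate 2 (0.17, edgeR adjusted p = 0.0775).

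Naglu (chr11:101070012-101077672), which cuts heparan sulfate and is missing in a Sanfilippo syndrome, went the other way. Its CPM were 2.87, 4.47, 3.9, 3.83 and 3.5 in KO_cold, against 8.47, 8.0, 8.23, 9.23 and 8.67 in KO_RT, and 4.25, 4.57, 3.15, 5.29 and 3.15 in WT_cold, against 8.35, 7.78, 7.71, 8.2 and 8.38 in WT_RT. No cold library reached the RT libraries of either genotype. The log2 change was -1.20 ± 0.129, adjusted p = 7.27e-08 in KO and -0.99 ± 0.126, adjusted p = 9.13e-07 in WT (edgeR). Glb1, the beta-galactosidase used as a senescence stain, was at 7.37, 7.21, 6.58, 8.07 and 6.82 CPM in KO_cold, against 10.3, 9.92, 10.8, 13.6 and 11.3 in KO_RT, and at 8.63, 8.82, 8.08, 8.54 and 7.27 in WT_cold, against 11.2, 11.2, 12.5, 11.2 and 9.17 in WT_RT. It too was lower in every cold library, with log2 changes of -0.63 ± 0.0951 in KO and -0.42 ± 0.0932 in WT (edgeR adjusted p = 7.27e-06 in KO and 0.000602 in WT). Glb1 shares exon sequence on the same strand with Tmppe, and reads in both were not counted. Hexa and Gaa, the enzymes missing in Tay-Sachs and Pompe disease, did not pass in either genotype.

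All 4 genes of lipid handling were lower after cold in KO and 3 of the 4 in WT. Lipa (chr19:34492318-34527474), the acid lipase of the lysosome, fell most. It was at 80.1, 92.9, 105, 79.1 and 80.9 CPM in KO_cold, against 161, 169.9, 138, 134 and 133 in KO_RT, and at 99.1, 109.8, 90.6, 87.9 and 114 in WT_cold, against 157, 169.7, 138, 149 and 136 in WT_RT. The groups did not overlap in either genotype, and the log2 change was -0.75 ± 0.0954, adjusted p = 7.35e-07 in KO and -0.58 ± 0.095, adjusted p = 2.08e-05 in WT (edgeR). Npc1 and Npc2, which pass cholesterol out of the lysosome, had smaller values. Npc1 was at -0.23 ± 0.0926, adjusted p = 0.0397 in KO and -0.42 ± 0.0917, adjusted p = 0.000541 in WT, and Npc2 at -0.41 ± 0.113, adjusted p = 0.00327 in KO and -0.06 ± 0.112, adjusted p = 0.66 in WT (log2 changes, edgeR). Psap fell by 0.16 in KO and by 0.18 in WT on the log2 scale. In a fit with a term for muscle markers Npc2, at -0.42 (edgeR adjusted p = 0.0514), and Psap, at -0.18 (edgeR adjusted p = 0.0665), did not pass in KO. That left 2 of the 4 called lower there, with Npc1 at -0.35, though neither lost call had a smaller change than in the main fit. The mean log2 level of the muscle markers was itself -2.24 in KO_cold and 2.94 in KO_RT, so the term overlaps with cold. Some of the smaller calls did not hold with fewer libraries. In KO, Npc1 did not pass when any 1 of 9 of the 10 libraries was left out, and Psap when any 1 of 7 was, with the smallest values without KO_cold replicate 5, -0.12 for Npc1 (edgeR adjusted p = 0.234) and -0.10 for Psap (edgeR adjusted p = 0.132). In WT, Psap did not pass without WT_cold replicate 3 (-0.13, edgeR adjusted p = 0.0631), and without WT_RT replicate 4 and WT_cold replicate 5 Npc1 changed by -0.27 in WT (edgeR adjusted p = 0.0111).

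Of the transcription factors that act on these genes, Tfeb and Tfe3 moved little. Tfeb was at 10.1, 9.49, 8.1, 10.2 and 8.15 CPM in KO_cold, against 8.25, 7.54, 7.71, 8.29 and 8.46 in KO_RT, and at 8.5, 9.46, 10.2, 8.81 and 9.73 in WT_cold, against 8.66, 7.85, 7.45, 8.15 and 7.65 in WT_RT. Libraries overlapped in both genotypes, and the log2 change was 0.20 ± 0.0812, adjusted p = 0.0429 in KO and 0.23 ± 0.0802, adjusted p = 0.0182 in WT (edgeR). Tfe3 was at 30.3, 32.4, 30.3, 31.3 and 30.5 CPM in KO_cold, against 30.8, 32.3, 28.1, 26.4 and 27.3 in KO_RT, and at 30.3, 32.6, 31.1, 31.7 and 30.7 in WT_cold, against 26.3, 27.8, 26.9, 22.8 and 29.6 in WT_RT. Only the WT libraries were apart, with a log2 value of 0.09 ± 0.065, adjusted p = 0.223 in KO and 0.23 ± 0.0647, adjusted p = 0.00446 in WT (edgeR). In KO, Tfeb did not pass with a term for muscle markers (edgeR adjusted p = 0.154), with no expression filter (0.132), with the replicate block (0.0648), with the compared groups only (0.059), or without KO_cold replicate 1 or 4 or KO_RT replicate 2 (0.0543 to 0.0662), while Tfe3 passed without KO_RT replicate 2, at 0.16 (edgeR adjusted p = 0.0398). Their proteins act by moving into the nucleus, which these data do not measure.

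Mitf, the third family member and best known from melanocytes and osteoclasts, fell in WT only. It was at 5.49, 7.92, 7.44, 7.02 and 6.05 CPM in KO_cold, against 9.06, 6.79, 6.93, 8.47 and 7.13 in KO_RT, and at 3.94, 4.8, 3.56, 3.15 and 2.84 in WT_cold, against 8.08, 5.89, 8.74, 6.91 and 8.13 in WT_RT. The WT_cold libraries lay below all others, while KO_cold and KO_RT overlapped. The log2 change with cold was -0.18 ± 0.14, adjusted p = 0.275 in KO and -1.04 ± 0.142, adjusted p = 2.26e-06 in WT (edgeR). The difference between these changes was 0.86 ± 0.199, adjusted p = 0.0428 (edgeR interaction term). Among the 41 genes it was the only one called higher in that test (0.427% of all genes were called higher), and 0 were called lower (0.315% of all were called lower). At an unadjusted p under 0.05 in edgeR 2 were higher and 4 lower, but the share of all genes at that threshold was not counted. DESeq2 called 1 higher and 0 lower, where 269 of all genes were called in either direction. The call of Mitf did not hold under 19 of 29 alternatives, among them leaving out any 1 of 15 of the 20 libraries. Its log2 difference stayed at 0.78 to 0.98 over all 29, and the highest adjusted p was 0.0936 (edgeR). Gene counts do not separate the Mitf isoforms, which start from different promoters.

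**Figure D4:**
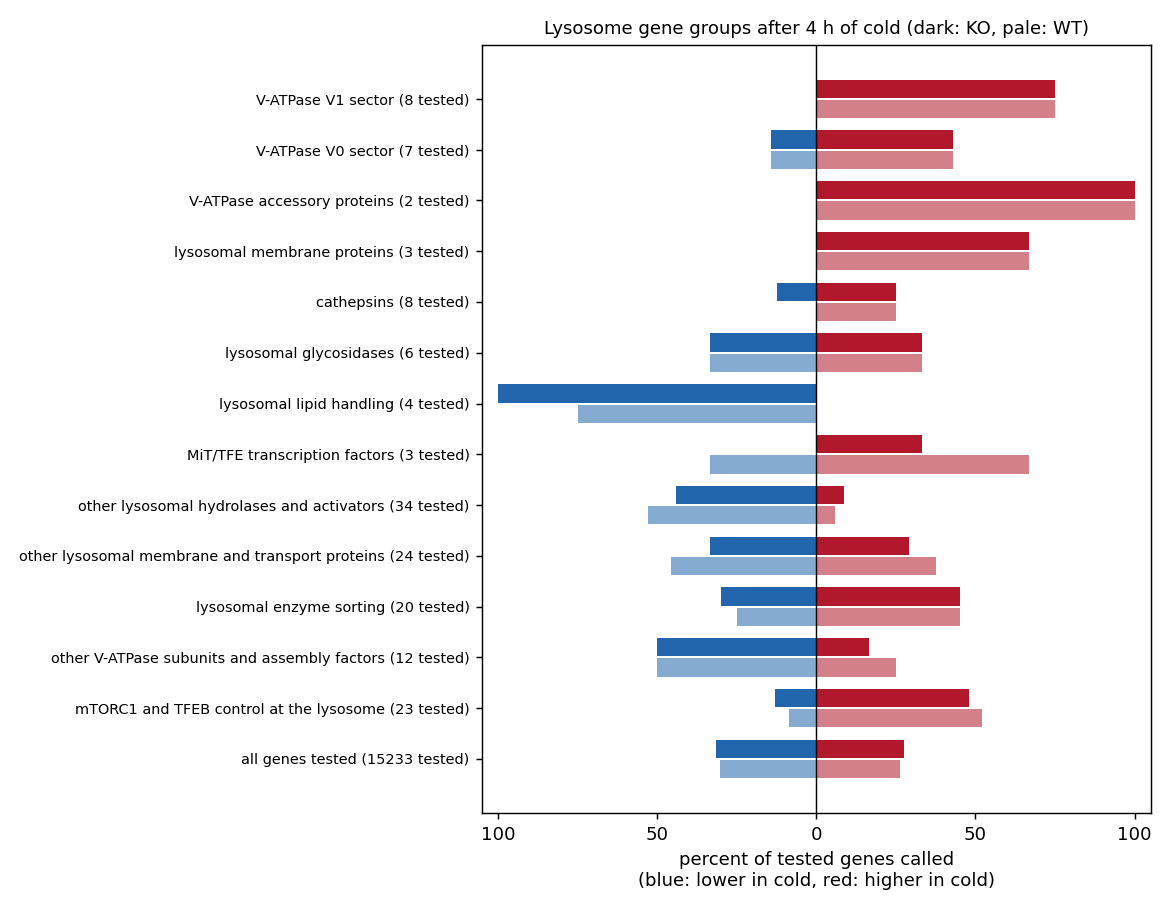
Percent of the tested genes in each group that were called lower (blue, left) or higher (red, right) after 4 h of cold, in KO (dark) and WT (pale), with all 15233 tested genes in the lowest row. The bars of the V1 sector, accessory and membrane proteins point right, those of lipid handling and the other hydrolases mostly left.

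Other genes of the pathway, listed by function, were counted in the same way, and their counts stand beside 27.5% higher and 31.7% lower of all tested genes in KO and 26.2% and 30.2% in WT. In the control of mTORC1 and TFEB at the lysosome more genes were higher than lower, with 11 of 23 tested genes higher and 3 lower in KO and 12 higher and 2 lower in WT, and medians of 0.27 in KO and 0.18 in WT. Its largest riser was Flcn, folliculin, the Rag GTPase regulator that keeps TFEB family proteins in the cytosol. Flcn was at 306 to 378 CPM in KO_cold, against 61.5 to 92.0 in KO_RT, and at 156 to 313 in WT_cold, against 66.1 to 95.0 in WT_RT. The cold libraries were apart from RT in both genotypes, with log2 changes of 2.25 ± 0.152, adjusted p = 5.87e-10 in KO and 1.61 ± 0.149, adjusted p = 3.14e-08 in WT (edgeR). Lamtor3, a Ragulator subunit, rose by 0.99 in KO and 0.98 in WT, and the GTPase Rragc by 0.81 in KO and 0.93 in WT. Lamtor4, of the same Ragulator complex, fell by 0.34 in KO and by 0.18 in WT on the log2 scale.

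Among the other hydrolases and activators more genes were lower than higher. Of 34 tested, 3 were higher and 15 lower in KO and 2 were higher and 18 lower in WT, with medians of -0.16 in KO and -0.18 in WT. Sgsh, the sulfamidase that acts on heparan sulfate as Naglu does, was at 3.62 to 4.31 CPM in KO_cold, against 8.16 to 10.9 in KO_RT, and at 3.26 to 4.87 in WT_cold, against 9.11 to 10.5 in WT_RT. Its log2 change was -1.27 ± 0.112 in KO and -1.37 ± 0.111 in WT (edgeR adjusted p = 5.37e-09 in KO and 1.87e-09 in WT). Dnase2a and Manba (beta-mannosidase) followed in KO at -0.90 and -0.85, and the phospholipase Pla2g15 and the acid phosphatase Acp5 in WT at -1.0 and -0.68. Among the risers was Gusb, the beta-glucuronidase, at 0.38 in WT.

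The other membrane and transport proteins had 7 of 24 higher and 8 lower in KO, close to the shares of all genes, and 9 higher and 11 lower in WT, at medians of -0.08 in KO and -0.14 in WT. The calcium and sodium channel Tpcn2 was at 12.0 to 15.9 CPM in KO_cold, against 3.69 to 5.01 in KO_RT, and at 14.3 to 17.5 in WT_cold, against 3.68 to 4.98 in WT_RT. It had the largest rise of the list, 1.71 ± 0.105 in KO and 1.85 ± 0.103 in WT (edgeR adjusted p = 5.98e-11 in KO and 3.20e-11 in WT). Scarb2, an integral protein of the lysosomal membrane, rose by 0.89 in KO and 0.69 in WT. The nucleoside transporter Slc29a3, the cysteine importer Mfsd12 and the potassium and proton channel Tmem175 fell most, at -1.04, -1.46 and -0.76 in KO and at -1.10, -0.94 and -0.94 in WT.

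Sorting of enzymes to the lysosome had 9 of 20 genes higher and 6 lower in KO and 9 higher and 5 lower in WT. M6pr, the cation-dependent mannose 6-phosphate receptor, rose by 0.60 in KO and 0.59 in WT, and the adaptor genes Ap3d1 and Gga3 by 0.53 to 0.66. The enzymes that make the mannose 6-phosphate tag were lower: Gnptab changed by -1.06 in KO and -0.74 in WT, and Nagpa by -0.83 in KO and -0.75 in WT. Of the other V-ATPase subunits and assembly factors 12 of 17 were tested. They had 2 higher and 6 lower in KO and 3 higher and 6 lower in WT, with medians of -0.19 in KO and -0.13 in WT. Dmxl1, of the RAVE-like assembly complex, rose by 0.84 in KO and 0.84 in WT, while Ncoa7, which binds the pump, changed by -0.87 in KO and -0.68 in WT, and Tcirg1, the a3 isoform of osteoclasts, by -0.41 in KO and -0.34 in WT.

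Few of the 42 genes passed the test of KO against WT, and few of all tested genes did. At RT, 2 of the 41 tested were lower in KO (1.32% of all genes were called lower) and 0 were higher (1.38% of all were called higher), with a median log2 change of -0.03. At an unadjusted p under 0.05 in edgeR 2 were higher and 5 lower, but the share of all genes at that threshold was not counted. DESeq2 called 0 higher and 2 lower, where 629 of all genes were called in either direction. In the cold, 2 were higher in KO (3.51% of all genes called higher) and 2 were lower (4.19% of all called lower), with a median of -0.02. Of the 17 tested pump genes 0 passed at RT, with 1 higher and 1 lower at an unadjusted p under 0.05 in edgeR, again without a share of all genes, and 0 in DESeq2. KO_RT against WT_RT and KO_cold against WT_cold share no library with each other, but each shares its libraries with the comparisons of cold above.

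**Figure D5:**
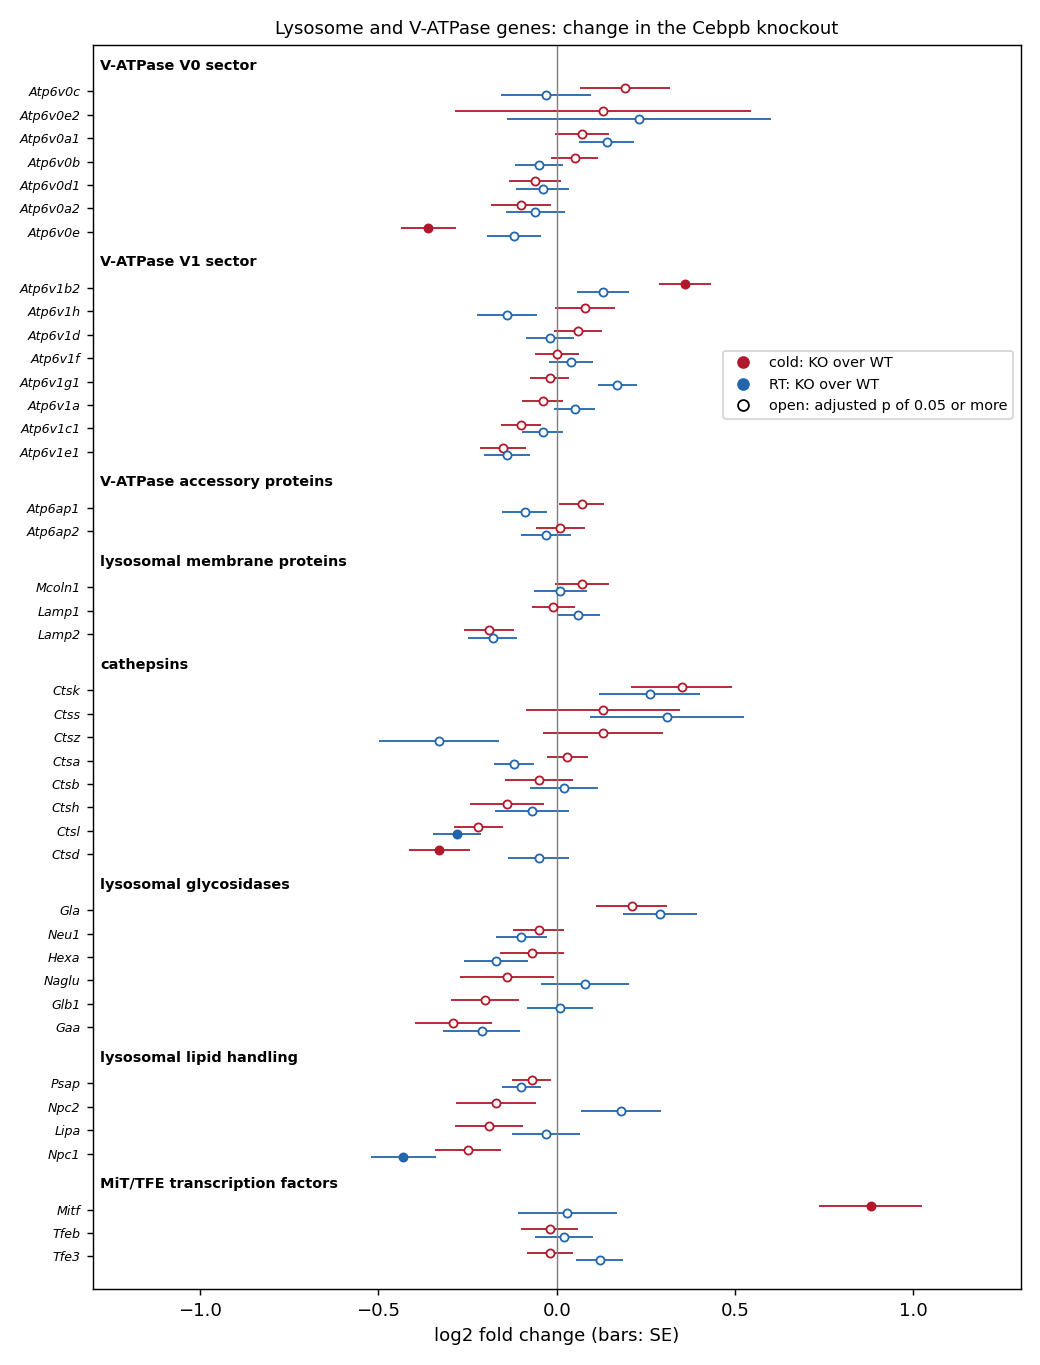
Log2 change, KO over WT (bars: SE), of the 41 tested genes by role, in the cold (red) and at RT (blue), with open points where the adjusted p was 0.05 or more. Mitf in the cold, at 0.88, lies apart from the other genes, which range from -0.43 to 0.36.

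At RT the lower genes were Npc1 and Ctsl. Npc1 (ENSMUSG00000024413.14) was at 43.4, 43.0, 47.9, 50.4 and 46.5 CPM in KO_RT, against 58.0, 60.3, 59.1, 76.6 and 58.5 in WT_RT. All KO_RT libraries were below the WT_RT libraries, and WT_RT replicate 4 was the highest. The log2 change was -0.43 ± 0.0919, adjusted p = 0.0101 (edgeR). In the cold Npc1 was at 37.8, 45.2, 42.6, 41.0 and 31.1 CPM in KO_cold, against 47.5, 53.0, 46.8, 45.0 and 41.8 in WT_cold, a log2 difference of -0.25 ± 0.0924, adjusted p = 0.121 (edgeR), with 2 libraries of each group in the overlap.

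Ctsl was at 104, 93.9, 105, 104 and 107 CPM in KO_RT, against 114, 118, 121, 121 and 149.8 in WT_RT. The groups did not overlap, with WT_RT replicate 5 highest and KO_RT replicate 2 lowest, and the log2 change was -0.28 ± 0.0683, adjusted p = 0.0271 (edgeR). Without WT_RT replicate 5 it was -0.20 (edgeR adjusted p = 0.0801), and without KO_RT replicate 2, 3 or 4 it was -0.25 to -0.29 (edgeR adjusted p = 0.0548 to 0.0797). In the cold it was at 138, 139, 139, 140.2 and 129 CPM in KO_cold, against 152, 173, 169.8, 158 and 143 in WT_cold, and these groups did not overlap either, at -0.22 ± 0.0682, adjusted p = 0.0567 (edgeR). DESeq2 and the fit without WT_cold replicate 5 called that difference, at -0.22 (DESeq2 adjusted p = 0.0306) and -0.25 (edgeR adjusted p = 0.031).

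In the cold, Mitf was higher in KO, with KO_cold libraries at 5.49 to 7.92 CPM against 2.84 to 4.80 in WT_cold and a log2 change of 0.88 ± 0.144, adjusted p = 0.000289 (edgeR). At RT the level was 7.68 ± 1.02 CPM in KO_RT and 7.55 ± 1.14 in WT_RT (mean ± SD, n = 5), with a log2 difference of 0.03 ± 0.138, adjusted p = 0.97 (edgeR). Atp6v1b2, the B subunit, was at 281, 283, 277, 245 and 237 CPM in KO_cold, against 193, 244, 207, 202 and 181 in WT_cold. Most KO_cold libraries were above the WT_cold libraries, with an overlap at WT_cold replicate 2, and the log2 change was 0.36 ± 0.0735, adjusted p = 0.00258 (edgeR). At RT it was at 164, 144, 159, 145 and 143 CPM in KO_RT and 138, 139, 128, 137 and 148 in WT_RT, a log2 difference of 0.13 ± 0.0736, adjusted p = 0.472 (edgeR).

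Atp6v0e, the first isoform of the e subunit, was at 57.6, 63.7, 58.8, 65.2 and 66.6 CPM in KO_cold, against 73.2, 74.3, 77.7, 85.6 and 89.0 in WT_cold. The groups did not overlap, and the log2 change was -0.36 ± 0.0764, adjusted p = 0.00421 (edgeR). At RT the libraries overlapped, at 61.7, 66.6, 69.1, 66.7 and 62.1 CPM in KO_RT and 68.3, 72.5, 68.7, 59.7 and 84.6 in WT_RT. Ctsd, the aspartic protease, shares exon sequence on the same strand with the annotated gene Gm49369, and reads in both were not counted. It was at 218, 229, 219.7, 238 and 265 CPM in KO_cold, against 271, 269, 261, 321 and 350.4 in WT_cold. Only KO_cold replicate 5 reached the WT_cold range, in which replicates 4 and 5 were high. The log2 change was -0.33 ± 0.0855, adjusted p = 0.0166 (edgeR), and without WT_cold replicate 5 it was -0.26 (edgeR adjusted p = 0.0589). None of the 4 changes in the cold was called at RT, and of these genes only Mitf passed the test of the difference between cold and RT, with edgeR adjusted p = 0.437 for Atp6v1b2, 0.453 for Atp6v0e and 0.424 for Ctsd.

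Of the 113 other pathway genes tested, 5 were higher and 7 lower in KO in the cold, and 1 was higher and 4 lower at RT. Of all tested genes 3.51% were higher and 4.19% lower in the cold, and 1.38% were higher and 1.32% lower at RT. Slc36a1, the lysosomal proton-coupled amino acid transporter that signals to mTORC1, was at 8.48 to 9.56 CPM in KO_cold, against 14.0 to 22.3 in WT_cold, and at 9.56 to 11 in KO_RT, against 11.1 to 12.3 in WT_RT. Groups did not overlap at either temperature, and the log2 change was -1.05 ± 0.0953, adjusted p = 2.68e-07 in the cold and -0.22 ± 0.0947, adjusted p = 0.289 at RT (edgeR). Its log2 value for cold over RT was -0.17 ± 0.0964 in KO and 0.66 ± 0.0932 in WT, a difference of -0.83 ± 0.134, adjusted p = 0.00373 (edgeR interaction term). Flcn was higher in KO in the cold, at 0.60 ± 0.145, adjusted p = 0.0135 (edgeR), with overlapping libraries.

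Sort1 (sortilin, a sorting receptor) was at 173 to 206 CPM in KO_cold, against 245 to 313 in WT_cold, and at 251 to 273 in KO_RT, against 302 to 355 in WT_RT. It was lower in KO at both temperatures, with log2 changes of -0.45 ± 0.0666, adjusted p = 9.91e-05 in the cold and -0.30 ± 0.0665, adjusted p = 0.0148 at RT (edgeR). Ids, the iduronate sulfatase, was higher in KO at both, by 0.43 ± 0.0685 in the cold and 0.40 ± 0.0682 at RT (edgeR adjusted p = 0.000231 in the cold and 0.00136 at RT). Laptm4b changed by -0.34 in the cold and -0.24 at RT, and passed at both. In the cold Asah1 (acid ceramidase), the ganglioside activator Gm2a and Ctsf were called lower, at -0.36, -0.37 and -0.31, and at RT Arsb and Mfsd8, at -0.31 and -0.30. Macrophage markers passed the test in 0 of 15 cases in KO against WT at either temperature (edgeR), with 1 higher and 1 lower at an unadjusted p under 0.05 at RT and 1 higher and 2 lower in the cold, and DESeq2 called 1 lower at RT and 0 in the cold. For the unadjusted threshold the share of all genes was not counted. Of the 10 fibroblast and adipocyte progenitor markers 4 were higher in KO in the cold and 2 at RT, with summed levels of 697 to 786 CPM in KO_cold, against 575 to 635 in WT_cold, and of 567 to 743 in KO_RT, against 469 to 589 in WT_RT, and their part in these differences was not tested.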

How the data were processed

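RNA of whole brown adipose tissue was isolated with a PureLink RNA mini kit and made into libraries with a KAPA Stranded mRNA-Seq kit, per the labels' protocols. Trim Galore 0.6.0, STAR 2.7.8a and the builds GRCm38.p6 and mm10 are named in the submitters' processing notes, and the annotation release is not given in the sources used here. The deposited files hold raw read counts per gene, made by the authors, in columns for both strands, the forward strand and the reverse strand. The reverse-strand counts were used, since 94.49 to 95.7% of stranded counts fell there. Entries that name no gene were left out of library sizes: those for unmapped reads held 3.86 to 5.66%, for multimapped reads 18.26 to 21.41%, for reads outside genes 3.14 to 4.55% and for reads shared by genes 1.02 to 1.16%. Depth was 27.07 to 55.18 M counts in genes per library, of which 28.82 to 36.02% were mitochondrially encoded.

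Counts were filtered by filterByExpr (minimum count 10, total 15), scaled by TMM and fitted in 1 model of the 4 groups with edgeR 4.0.16's robust quasi-likelihood test in R 4.3.3 with limma 3.58.1 (16 residual degrees of freedom, biological coefficient of variation 15.3%). Benjamini-Hochberg adjustment ran over 15233 genes, with a threshold of 0.05. SE is the log2 change divided by the square root of F. CPM use TMM-scaled library sizes. The comparisons were KO with WT at RT and in the cold, cold with RT in KO and in WT, and the difference between these (interaction). The code was tested on simulated counts. The members and lists were chosen with earlier results of these data known. Values per library are given for called genes with the 3 largest changes in each direction and a group mean of at least 5 CPM, for those called in a knockout comparison or in the interaction, and for Tfeb, Tfe3 and Mitf. For the other pathway lists up to 3 called genes of largest change per direction were eligible. Lamp2, Atp6v0e2, Ctsz, Ctsb and the ranges of pathway genes were added after their values were seen.

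Alternatives were relative log expression scaling, no expression filter, DESeq2 1.42.0, a fit of the compared groups only, a replicate block, counts of both strands, skeletal muscle or macrophage marker means as terms, library sizes without mitochondrially encoded genes, each library left out, and WT_RT replicate 4 with WT_cold replicate 5 left out.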

Additional observations from a re-analysis of the deposited data

Results flagged for a closer look

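In 10 of 168 combinations of gene and group, 1 library lay far from the other 4 by Dixon's criterion, and chance alone flags about 1 in 20. Ctsl had such a library in 3 groups: KO_cold replicate 5 at 129 CPM (others 138 to 140.2), KO_RT replicate 2 at 93.9 (others 104.5 to 107) and WT_RT replicate 5 at 149.8 (others 114 to 121). KO_RT replicate 2 also stood apart in Ctss at 15.1 CPM (others 6.76 to 8.07) and in Ctsa at 50.5 (others 53.2 to 53.9), and its macrophage markers summed to 196 CPM, the highest of KO_RT. WT_RT replicate 5 also stood apart in Ctsz, at 337 CPM (others 169 to 205). Ctsb was at 1115 CPM in WT_cold replicate 5 (others 741 to 845). Npc1 was at 76.6 CPM in WT_RT replicate 4 (others 58.0 to 60.3). Psap was at 1242 CPM in KO_RT replicate 1 (others 1320 to 1334), and Atp6v0c at 16.4 CPM in KO_RT replicate 5 (others 22.0 to 23.3).

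The change with cold differed between KO and WT in Mitf, by 0.86 on the log2 scale (edgeR interaction term, adjusted p = 0.0428), where 5 of 5 KO_cold libraries lay above every WT_cold library. It differed as well in Slc36a1, by -0.83 (edgeR interaction term, adjusted p = 0.00373), where 5 of 5 KO_cold libraries lay below every WT_cold library. The call for Mitf did not hold under 19 of 29 alternatives, among them leaving out any 1 of 15 libraries.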

How the results depend on the processing

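No called change of the 42 genes turned its direction under any alternative run. In all 20 alternatives of cold, 20 of 26 called genes held in KO (not Atp6v0e2, Ctsb, Npc1, Npc2, Psap and Tfeb) and 23 of 26 in WT (not Atp6v0e2, Neu1 and Psap). With the muscle marker term 4 genes were called lower after cold in KO, against 8. For KO against WT at RT, DESeq2 called 629 of all genes, against 411, and 1 of the 42 was lower with the groups compared only and with the replicate block, against 2. For KO against WT in the cold 4 of the 42 were lower without WT_RT replicate 4 and WT_cold replicate 5 together, against 2, with Ctsl at -0.25 (edgeR adjusted p = 0.0327) and Npc1 at -0.28 (edgeR adjusted p = 0.04) added. The interaction had 269 genes by DESeq2 and 74 without those 2 libraries, against 113, and 0 of the 42 higher with the replicate block, with both strands, with the muscle term and without those 2 libraries, against 1. Leaving out 1 library each, the calls over all genes were 8530 to 8791 for cold in KO, 8046 to 8710 for cold in WT, 267 to 356 for KO at RT, 928 to 1139 for KO in the cold and 78 to 125 for the interaction. Among the 42 genes, they were 17 to 18 higher and 4 to 6 lower for cold in KO, 18 to 22 and 6 to 8 for cold in WT, 0 to 1 and 1 to 2 for KO at RT, 2 to 2 and 2 to 3 for KO in the cold, and 0 to 1 higher for the interaction. The median of the 42 genes then ranged from 0.10 to 0.16 for cold in KO and from 0.16 to 0.24 for cold in WT. The cause of these shifts was not tested. The labels do not say that replicate numbers pair the libraries. Deviations from the group means correlated at -0.184 to 0.274 between same-numbered libraries. Differently numbered ones were not compared, so these values cannot decide whether the libraries are paired. Depth limits Atp6v0d2, which was under the filter.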
